A study of Carassius auratus with 6 samples.

Results

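The ZIC genes, which encode zinc finger transcription factors, were examined in skin of the golden-back crucian carp, a form of *Carassius auratus*, comparing golden with greenish grey samples. Members were the rows of the deposited gene table whose product name begins with zinc finger protein ZIC. There were 14 such rows among 83088. Of these, 4 had a mean of at least 1 FPKM (fragments per kilobase of gene, scaled to the size of the library) over the 6 libraries and were tested, and the other 10 fell under that minimum.

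The fish is a natural colour mutant whose golden skin lies on the back. The study compared messenger RNA between both skin colours to find the genes that go with the colour difference. Per the labels, 3 libraries came from golden skin and 3 from greenish grey skin, all from female fish of this one form, and the labels name no treatment and no engineered allele. The study's methods give an age, and 3 fish from which both colours were taken, for its small RNA libraries, but not for these mRNA libraries. The body site of the greenish grey samples is not given in the sources used here, so skin colour and position on the trunk cannot be told apart.

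ZIC proteins belong to the C2H2 class of zinc finger factors and resemble the GLI factors that act at the end of hedgehog signalling. In vertebrate embryos they are known for marking dorsal tissue, first the dorsal neural tube and then the dorsal part of the somites, the blocks of trunk mesoderm that give muscle and dermis. Zic1 and zic4 lie head to head in the genome, and in medaka the mutant Double anal fin, which loses their somite expression, has a dorsal trunk with the fins and colouring of the belly side.

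Total counts ranged from 51493103 to 67595616 per library. Of 26421 genes tested, 0 passed an adjusted p of 0.05 in the quasi-likelihood test of edgeR (p-values adjusted by Benjamini-Hochberg), 1163 (4.4%) had an unadjusted p under 0.05, and DESeq2 called 205. Counts on melanophore markers, the black pigment cells, made up 0.00169% to 0.00232% of the golden libraries, against 0.00725% to 0.0198% of the greenish grey ones, and these ranges do not overlap. Skeletal muscle markers (165 rows, 13 of them at 0 in all libraries) took 3.21% to 13.1% of the counts in golden skin and 1.85% to 8.64% in greenish grey skin. The labels do not say that the samples came from separate fish, so p-values measure only the spread between these libraries.

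The 14 rows included 3 of ZIC 1, 2 of ZIC 2, 4 of ZIC 4 and 3 of ZIC 5, as the product names give them. The rows lie on assembly ASM336829v1, 11 on numbered chromosomes and 3 on unplaced sequences, and RefSeq marks 2 of the unplaced ones as pseudogenes. Goldfish and crucian carp have a duplicated genome, so most ZIC genes come as a pair of similar copies, and how the authors' counting divided reads between copies is not given in the sources used here. In all, 7542 counts over the 6 libraries fell on ZIC rows, of which 92.9% were on the 4 tested genes. These 4 form 2 neighbouring pairs of 1 zic1 and 1 zic4 copy, on chromosomes 24 and 49. No ZIC 2 or ZIC 5 row reached the minimum of 1 FPKM.

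On chromosome 49, zic4 (LOC113066309) runs from 13576657 to 13581029 on the minus strand, and zic1 (LOC113066310) from 13581260 to 13588676 on the plus strand. Both genes point away from each other across a gap of 230 bp. RefSeq extends the zic4 gene to 13583917, which would overlap zic1 by 2658 bp, and since the use of strand in the counting is not given, reads of that stretch cannot be assigned to either gene. On chromosome 24, zic1 (LOC113042246) runs from 9395835 to 9399631 on the minus strand and zic4 (LOC113042245) from 9402555 to 9408250 on the plus strand, with 2923 bp between them.

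Of the tested genes, 3 had a higher mean in golden skin and 1 a lower mean. None passed a test on its own, and in each of the 4 the libraries of both colours overlapped. Against this stand 10.1% of all tested genes whose groups do not overlap. In edgeR, 0 of the 4 had an unadjusted p under 0.05, so 0 were past 2-fold at that level, beside 2.77% of all tested genes, and 0 passed the adjusted threshold, beside 0.0% of all.

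The highest level was that of zic1 on chromosome 49, LOC113066310, a factor of dorsal neural and somite tissue. It measured 4.84, 2.58 and 2.82 FPKM in golden replicates 1, 2 and 3, against 3.64, 1.37 and 2.30 FPKM in greenish grey replicates 1, 2 and 3. The raw counts behind these were 777, 448 and 585 in golden skin and 576, 267 and 462 in greenish grey skin. Replicate 1 stood above replicates 2 and 3 in both colours, and golden was above greenish grey at each replicate number, while the 2 ranges overlapped. The means were 3.41 ± 1.24 FPKM in golden skin and 2.44 ± 1.15 FPKM in greenish grey skin (SD, n = 3 each). The log2 fold change was 0.67 (SE 0.57, 95% interval -0.71 to 2.04), with an adjusted p of 0.999828 (edgeR's quasi-likelihood test, adjusted by Benjamini-Hochberg), a value shared by all 4 tested ZIC genes. The difference was thus smaller than the spread between replicates, and the interval still holds changes of over 2-fold upwards.

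The zic1 copy on chromosome 24, LOC113042246, was at a lower level, again highest in both libraries numbered 1. Its values were 2.40, 1.46 and 1.24 FPKM in golden skin and 2.01, 0.753 and 1.34 FPKM in greenish grey skin, with means of 1.70 ± 0.618 and 1.37 ± 0.631 FPKM (SD, n = 3 each). The colours overlapped, and golden was above greenish grey at only 2 of 3 numbers. The log2 fold change was 0.50 (SE 0.59, interval -0.90 to 1.91), which edgeR's test did not call.

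Zic4 shares its regulation in the dorsal somite with zic1 in medaka. Its chromosome 49 copy, LOC113066309, had the largest fitted difference of the 4 tested ZIC genes. It measured 2.06, 0.691 and 1.53 FPKM in golden skin, against 1.47, 0.447 and 0.565 FPKM in greenish grey skin, from 262, 95 and 251 counts in golden skin and 186, 70 and 91 counts in greenish grey skin. Golden was higher at each replicate number, yet golden replicate 2 lay below greenish grey replicate 1. The means were 1.43 ± 0.689 FPKM in golden skin and 0.829 ± 0.562 FPKM in greenish grey skin (SD, n = 3 each), and the log2 fold change was 0.91 (SE 0.73, interval -0.85 to 2.67), again not called. Without greenish grey replicate 1 the value was 1.76, past 2-fold at an unadjusted p under 0.05 but with an adjusted p of 0.995 in edgeR. In that fit 863 of all 26421 tested genes were past 2-fold at that level. Without golden replicate 1 the value was 0.30, so single libraries set the size of this difference.

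The second zic4 copy, LOC113042245 on chromosome 24, had nearly the same level in both colours. Its mean over the 6 libraries was 1.004 FPKM, the lowest value of a ZIC row that still passed the minimum, and the next row below it was the ZIC 4-like pseudogene at 0.386 FPKM. It measured 1.14, 0.913 and 0.748 FPKM in golden skin, against 1.31, 1.09 and 0.828 FPKM in greenish grey skin, and in FPKM golden was the lower one at each number. On the scaled counts the log2 fold change was -0.03 (SE 0.44, interval -1.10 to 1.03). Its spread was also the smallest, with a coefficient of variation of 20.9% in golden and 22.5% in greenish grey skin, where the other 3 tested genes had 36.3% to 67.9%. Counting error alone would give 3.59% to 12.0% for these genes, which is less than the spread seen.

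**Figure D1:**
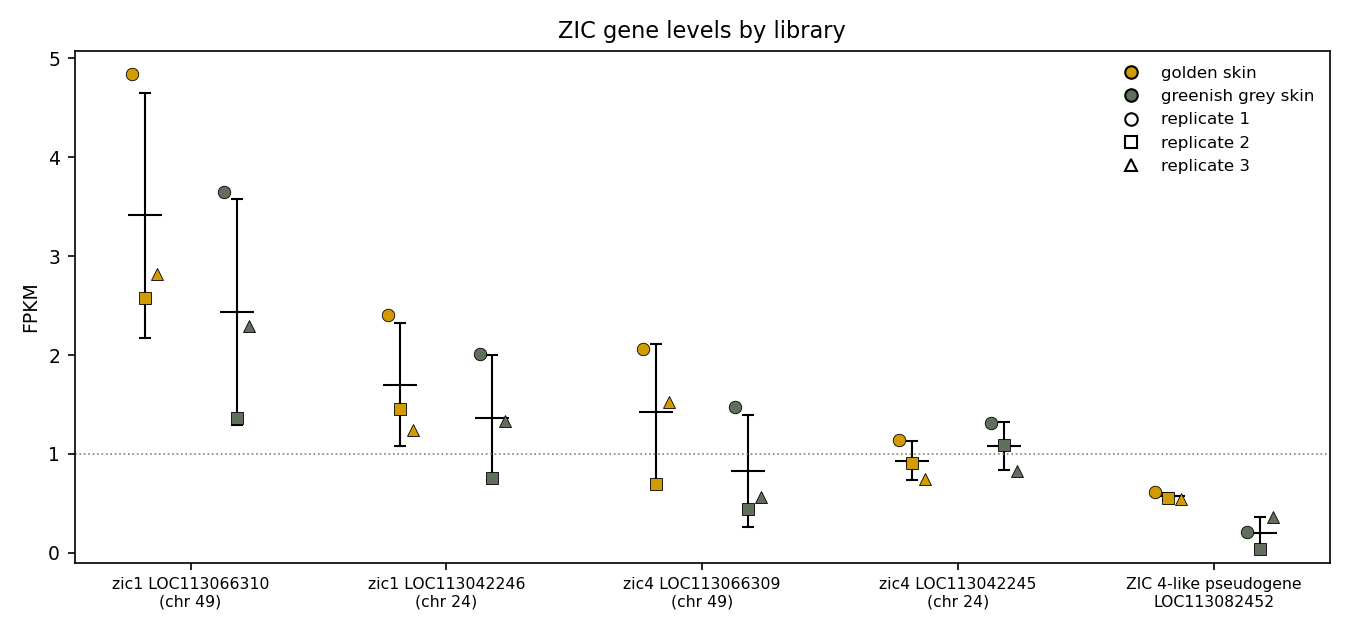
FPKM (vertical axis) of the 4 tested ZIC genes and the ZIC 4-like pseudogene in each library, with golden skin on the left of each pair and greenish grey skin on the right; symbols give the replicate number, the horizontal ticks and bars the mean and SD of 3 libraries, and the dotted line the minimum of 1 FPKM. The colours overlap in all 4 tested genes, and the pseudogene has 0.539 to 0.612 FPKM in golden skin against 0.0412 to 0.358 FPKM in greenish grey skin.

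The order of the 4 genes was steady at the top only. LOC113066310 had the highest FPKM in 6 of 6 libraries and LOC113042246 the second highest in 4 of 6, while both zic4 copies held the lowest place in 3 libraries each. The 2 zic4 copies therefore did not differ in order beyond their spread. In FPKM, the chromosome 49 copy of zic1 was 2.01, 1.77 and 2.27 times the chromosome 24 copy in golden skin. In greenish grey skin it was 1.81, 1.81 and 1.72 times that copy. This ratio did not pass an exact two-sided permutation test between colours (p = 0.3, adjusted p = 0.45, where 3 against 3 libraries cannot go below 0.1).

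The zic4 copies were less tied to each other. The chromosome 49 copy was 1.81, 0.758 and 2.04 times the chromosome 24 copy in golden skin, and 1.12, 0.410 and 0.682 times it in greenish grey skin. Golden had the higher ratio at each of the 3 replicate numbers, but the groups overlapped, and the exact two-sided permutation test gave p = 0.2 (adjusted p = 0.45). The zic1 copies together were 2.27, 2.52 and 1.79 times the zic4 copies in golden skin and 2.03, 1.38 and 2.61 times in greenish grey skin (exact two-sided permutation p = 0.7, adjusted p = 0.7). The adjustment is by Benjamini-Hochberg over these 3 ratios.

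Across the 6 libraries, the log2(FPKM + 1) of both zic1 copies correlated at Pearson r = 0.969, and that of zic1 and zic4 on chromosome 49 at r = 0.903. The zic4 copy on chromosome 24 correlated with the other 3 at only 0.268 to 0.434. These are descriptions over 6 libraries of 2 colours, which share their depth and tissue makeup. For the head-to-head neighbours on chromosome 24 r was 0.434, and the difference between both pairs was not tested.

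Over all genes, the libraries that carry 1 number deviated from their group means together, with correlations of 0.656, 0.258 and 0.682 between same-numbered libraries and at most 0.0644 between others. Deviations within a group cancel out, so high values between same-numbered libraries push the others down. The low values between others are thus no separate evidence of pairing. Given the same-numbered correlations, a fit with the replicate number as a block was set beside the one without it. With the block, zic1 LOC113066310 had a log2 fold change of 0.68 (SE 0.24, interval 0.0942 to 1.27, adjusted p = 0.350 in edgeR) and zic4 LOC113066309 one of 0.98 (SE 0.32, interval 0.185 to 1.77, adjusted p = 0.338). The other copies stayed above an unadjusted p of 0.05, LOC113042246 at 0.51 (SE 0.31) and LOC113042245 at -0.06 (SE 0.25, adjusted p = 0.933).

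Thus 2 of 4 tested ZIC genes had an unadjusted p under 0.05 with the block, beside 13.0% of all tested genes in either direction and 5.95% in the higher direction, and both are the chromosome 49 copies. With the block 0 of 4 passed the adjusted threshold, beside 0.00378% of all, and 0 were past 2-fold, beside 5.05% of all. The numbered differences of LOC113066310 were 0.69, 1.07 and 0.29 on the log2 scale for replicates 1, 2 and 3, and those of LOC113066309 were 0.75, 0.75 and 1.40. Being higher in golden skin at all 3 numbers held for 2 of 4 genes and for 19.5% of all tested genes.

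**Figure D2:**
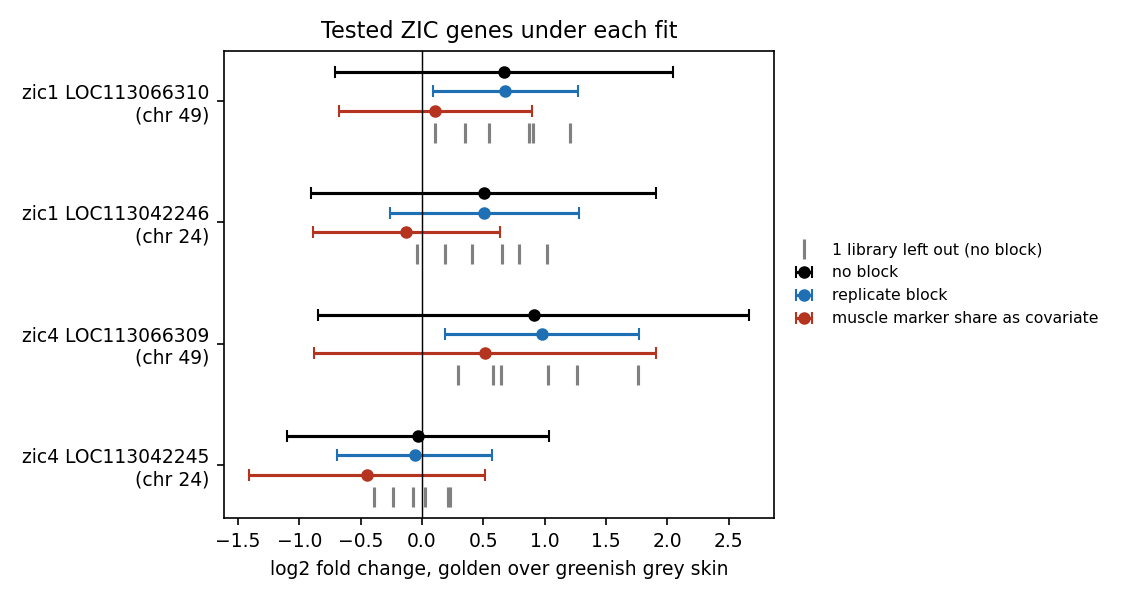
Log2 fold change of golden over greenish grey skin (horizontal axis) for the 4 tested ZIC genes, as points with 95% intervals in the edgeR fit without a block, with the replicate block and with the muscle marker share as a covariate; grey ticks are the fits without a block that leave out 1 library each. The interval excludes 0 only for the chromosome 49 copies and only with the block, and with the muscle covariate LOC113066310 is at 0.11.

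When all rows with the same ZIC number were summed before the fit, the ZIC 1 rows had a log2 fold change of 0.61 (SE 0.57) without the block and 0.62 (SE 0.24, adjusted p = 0.375) with it in edgeR's test. The summed ZIC 4 rows, the pseudogene described further on included, gave 0.54 (SE 0.47) without the block and 0.53 (SE 0.20, adjusted p = 0.373) with it. Dividing reads differently between the rows of one number would leave these sums as they are.

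ZIC counts were highest in the libraries with most skeletal muscle counts. All ZIC rows together had 34.1, 19.8 and 20.7 CPM (counts scaled to a common library total) in golden skin and 26.7, 11.9 and 16.8 in greenish grey skin, with means of 24.9 ± 7.97 and 18.4 ± 7.55 (SD, n = 3 each). The skeletal muscle markers made up 13.1%, 7.64% and 3.21% of the golden libraries and 8.64%, 1.85% and 3.24% of the greenish grey ones. The library with most muscle counts, golden replicate 1, had most ZIC counts, greenish grey replicate 1 was second in both, greenish grey replicate 2 was last in both, and the other libraries differed in order by 1 or 2 places. Both replicates 1 also had the highest shares of dermal fibroblast, Schwann cell, scale bone and erythrocyte markers, and the lowest of epidermis markers. On dermal fibroblast markers golden replicate 1 had 0.449% and greenish grey replicate 1 1.06%, against 0.158% to 0.361% in the other libraries. On Schwann cell markers they had 0.0865% and 0.0570%, against 0.0405% to 0.0495%. Which of these tissues the ZIC counts go with was not tested. In bulk skin, fewer cells of a type and less RNA per cell cannot be told apart.

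Scaled to the counts outside those markers, ZIC rows had 27.4 ± 10.3 CPM in golden skin and 19.6 ± 8.77 CPM in greenish grey skin (SD, n = 3 each), and golden was higher at each replicate number on either scale. With the log2 muscle share as a covariate, a fit chosen after seeing the data, the log2 fold changes were 0.11 for LOC113066310 (SE 0.32), -0.13 for LOC113042246 (SE 0.31), 0.52 for LOC113066309 (SE 0.57) and -0.45 for LOC113042245 (SE 0.39), and edgeR called none. The part of muscle tissue in the ZIC values was otherwise not tested.

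**Figure D3:**
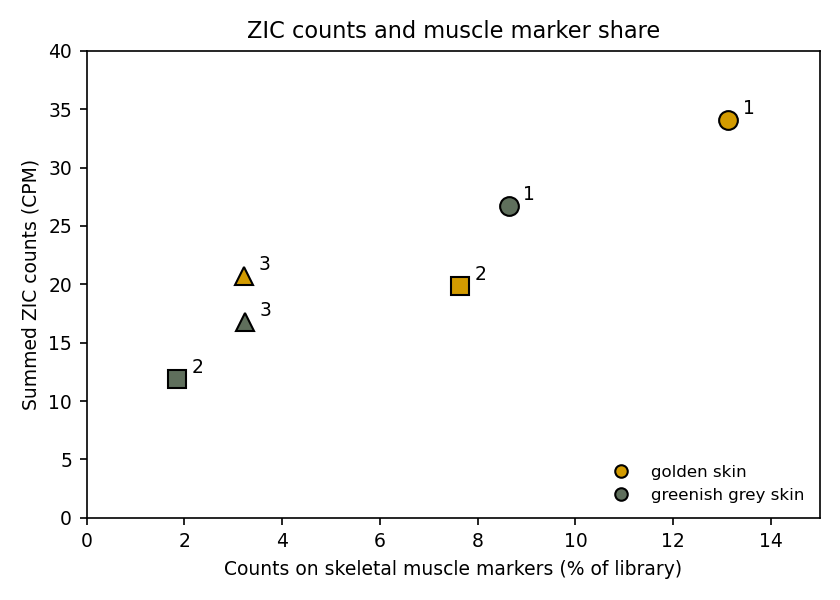
CPM summed over all 14 ZIC rows (vertical axis) against the share of counts on skeletal muscle markers (horizontal axis, % of the library) for each of the 6 libraries, with golden and greenish grey skin by colour and the replicate number beside each point. Both replicates 1 lie at the upper right, with 34.1 CPM in golden and 26.7 CPM in greenish grey skin, and greenish grey replicate 2 at the lower left with 11.9 CPM.

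The genes most like zic1 LOC113066310 over the 6 libraries, by the Pearson correlation of log2(FPKM + 1), included 2 genes of the muscle fibre. They were a NAD-dependent malic enzyme (LOC113073710, r = 0.994), parvalbumin-2, a calcium buffer of fast muscle (LOC113111772, r = 0.994), a second malic enzyme (LOC113073127, r = 0.992), a myomesin-2-like gene of the sarcomere M-band (LOC113055030, r = 0.989) and a LIM domain-binding protein 1-A-like gene (LOC113056929, r = 0.987). The first malic enzyme measured 27.9, 12.0 and 12.7 FPKM in golden skin and 18.4, 5.71 and 8.92 FPKM in greenish grey skin, the same order of libraries as the zic1 gene. Of 26417 genes compared, 0.727% had an r above 0.9 with it.

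The central nervous system is another known site of ZIC expression. Its markers took 0.00322% to 0.00561% of the counts in golden skin and 0.00440% to 0.00664% in greenish grey skin. Of 81 rows, 27 were at 0 in every library. They were uneven, with 5 rows at a mean of 1 FPKM or more. In the fit, 2 of these were higher and 3 lower in golden skin, and none was called. Among these, synaptosomal-associated protein 25, of nerve endings (LOC113114869), measured 0.719, 1.37 and 0.856 FPKM in golden skin and 4.27, 1.996 and 1.57 FPKM in greenish grey skin. The others included neurofilament medium (LOC113052962), at up to 2.71 FPKM, and a myelin transcription factor 1-like gene (LOC113113509), at up to 2.50 FPKM. They also held synaptotagmin-11-like genes LOC113116618 and LOC113119207, at up to 2.82 and 2.04 FPKM. ELAV-like proteins 3 and 4, which mark neurons, reached 0.0226 FPKM at most in any library, glial fibrillary acidic protein, of glia, 0.203 FPKM, and neurogenic differentiation factor 1 0.0515 FPKM. At each replicate number the share of all 81 rows was lower in golden skin, where the ZIC counts were higher. Rows were matched by the start of the product name, so the entry synaptotagmin-1 also took in synaptotagmin-11-like and similar rows. The share therefore cannot be read as that of nerve tissue alone. The part of nerve tissue in the ZIC values was not tested.

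Of the 10 ZIC rows under the minimum, 5 had no count in any library. Among them were the ZIC 1-like LOC113057976 on chromosome 39, the ZIC 2-like LOC113071308, zic6 (LOC113113964) on chromosome 14 and the ZIC 5-like pseudogene LOC113073312. A count of 0 allows up to 3 counts, which is 0.0444 to 0.0583 CPM in these libraries and covers counting error only. The ZIC 1-like gene on chromosome 39 was thus at 0, in contrast to both other zic1 genes.

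The ZIC 4-like pseudogene LOC113082452 had the highest level of the rows under the minimum. It lies on an unplaced sequence at 1919 to 6933 and had 93, 91 and 105 counts in golden skin, against 31, 8 and 68 counts in greenish grey skin. Its levels were 0.612, 0.559 and 0.539 FPKM in golden skin and 0.207, 0.0412 and 0.358 FPKM in greenish grey skin, with means of 0.570 ± 0.0377 and 0.202 ± 0.159 FPKM (SD, n = 3 each). The golden libraries were all above the greenish grey ones, as for 1.96% of all rows with a count and under 1 FPKM (8.8% of them did not overlap in either direction). In a fit with no filter on FPKM the log2 fold change was 1.69 (SE 0.77, adjusted p = 0.942 by edgeR). Reads of a pseudogene that resembles zic4 may be shared with the working copies, and its value is uncertain for that reason.

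A further 3 rows had counts in 1 or 2 libraries only. The ZIC 2-like gene zic2b, LOC113044386 on chromosome 26, had 9 counts in golden replicate 2 and 10 in greenish grey replicate 1. The ZIC 5-like LOC113053161 on chromosome 34 had 16 counts in golden replicate 2 and 0 in all greenish grey libraries, and LOC113108460 on chromosome 9 had 36 counts in golden replicate 1 and 8 in greenish grey replicate 2. No level of these 3 rows exceeded 0.230 FPKM.

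Of 16 neighbours of ZIC rows that are not ZIC genes, 3 reached a mean of 1 FPKM and were tested. Beside this stand 26421 tested genes among all 83088 rows. These 3 lie beside ZIC 2 and ZIC 5 rows that were near 0. They were tm9sf2, a membrane protein of the secretory route (log2 fold change 0.14), pcca, a subunit of propionyl-CoA carboxylase (0.03), and a citramalyl-CoA lyase gene, LOC113053164 (0.05), none of which was called. The others stayed under 1 FPKM on average and reached 1.27 FPKM at most. Beside both zic1 and zic4 pairs lies a type-1 angiotensin II receptor A-like gene, LOC113042244 at 188140 bp from zic1 on chromosome 24 and LOC113065963 at 127710 bp on chromosome 49.

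The GLI relatives share the zinc finger type with ZIC proteins and carry the hedgehog signal or, as GLIS factors, act elsewhere. Of 23 such rows, 6 were tested, and 0 were called or past 2-fold. Their log2 fold changes were -0.18 for GLI2 (LOC113108178), -0.45 for GLIS1 (LOC113045943), and -0.10, -0.21, -0.41 and -0.30 for the GLIS2 genes LOC113039954, LOC113051711, LOC113065063 and LOC113067733. All 6 were below 0, as were 12355 of all 26421 tested genes. Their median was -0.26, where the median of all tested genes was 0.03. GLIS1 measured 1.33, 1.71 and 1.59 FPKM in golden skin and 2.31, 2.52 and 2.09 FPKM in greenish grey skin, without overlap. It was the only 1 of the 6 without overlap, beside 10.1% of all tested genes. Its unadjusted p was 0.148 in edgeR's test.

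Of 36 hedgehog pathway rows, which hold the ligands, receptors and inhibitors ahead of the GLI factors, 12 were tested. No ligand, patched or hedgehog-interacting protein row reached the minimum, so the 12 hold none of these. None was called or past 2-fold, and the median was -0.27. In the fit without a block 12 of 12 were below 0, beside 12355 of all 26421 tested genes, and 10 of 12 with the muscle covariate. With the block 3 of 12 had an unadjusted p under 0.05 in edgeR, beside 13.0% of all. Of the ZIC genes, 3 of 4 were above 0 without a block and 2 of 4 with the muscle covariate, and the difference from either list was not tested.

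**Figure D4:**
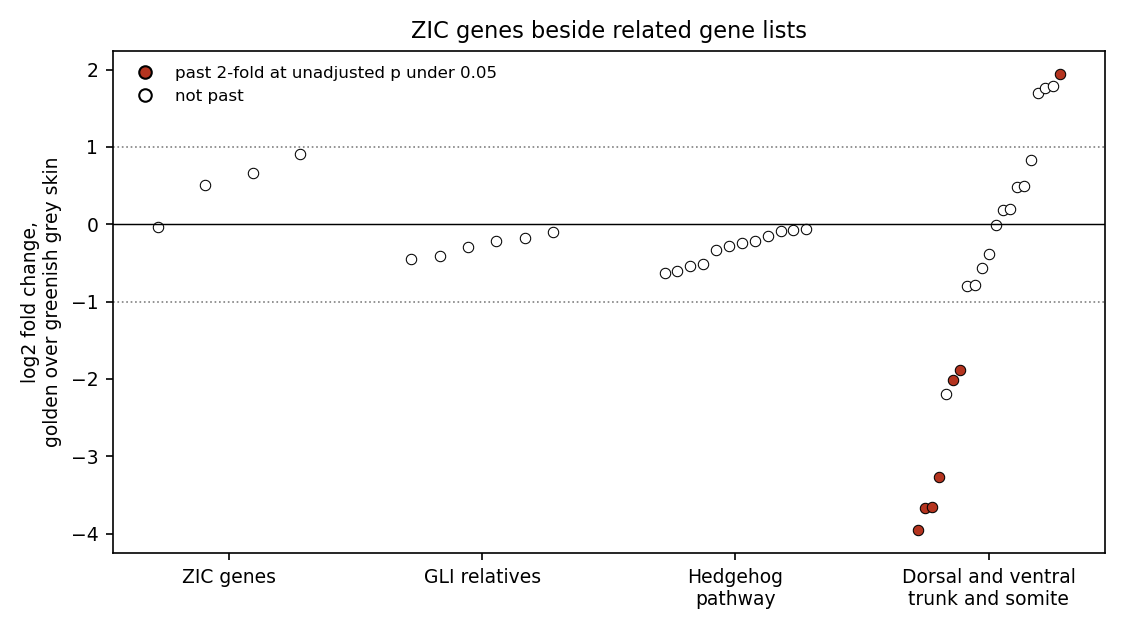
Log2 fold change of golden over greenish grey skin (vertical axis, edgeR without a block) for each tested gene of the ZIC family, the GLI relatives, the hedgehog pathway and the list of dorsal and ventral trunk and somite genes; red points are past 2-fold (dotted lines) at an unadjusted p under 0.05. The ZIC, GLI and hedgehog genes all lie between the dotted lines, and trunk genes lie beyond them on both sides. The LBX1 gene LOC113112639 and the agouti gene LOC113050259, at or near 0 in greenish grey skin, are left out. The LBX1 gene LOC113113778 is shown.

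Genes that pattern the back and belly of the trunk included some that differed past 2-fold. Of 69 rows 23 were tested, and 3 were past 2-fold higher and 6 lower, beside 1.26% and 1.51% of all tested genes, none of them at an adjusted p under 0.05. With the block 5 were past 2-fold higher and 7 lower, beside 2.42% and 2.63% of all. This list was written with earlier results of these data known, so its counts are not a test of these genes as a group. The median was -0.02 without the block and -0.42 with it. Called by the 2-fold rule with the block only were an agouti gene (LOC113038505, -1.80), a TBX15 gene (LOC113108532, 1.22) and a MOX-2 gene (LOC113119584, 1.54). They are named here after their values were seen. Without the block they were at -2.20, 1.79 and 1.76, with unadjusted p of 0.0517, 0.0775 and 0.147 in edgeR. With the block, the other tested TBX15 genes were at -0.45 (LOC113053407) and 1.17 (LOC113108551). The other tested MOX-2 genes were at 0.05 (LOC113058608), -0.02 (LOC113058667) and -0.27 (LOC113114989). None of these was called by the 2-fold rule.

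Lower in golden skin past 2-fold were 2 engrailed-1 genes, which mark ventral ectoderm in mouse limbs. LOC113105207 had 0.218, 0.159 and 0.181 FPKM in golden skin, against 2.26, 3.02 and 2.89 FPKM in greenish grey skin (log2 fold change -3.65, SE 0.39, adjusted p = 0.305 by edgeR). Its copy LOC113044568 had 0.171, 0.0736 and 0.180 FPKM in golden skin and 1.45, 3.55 and 2.71 FPKM in greenish grey skin (-3.96). The golden libraries lay well below all greenish grey ones in both.

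A gene of the Wnt-11 group is a target of Zic1 in the dorsal somite of medaka. Here the Wnt-11-like gene LOC113109918 had 3.17, 3.32 and 3.38 FPKM in golden skin and 16.8, 14.3 and 12.7 FPKM in greenish grey skin (log2 fold change -2.01, SE 0.30). The other tested Wnt-11-like gene, LOC113072806, was at -3.27. Whether either corresponds to the medaka target is not given by the product names. Both were lower in golden skin, while no ZIC difference was called, and a link between them was not tested. Pax3, a factor of muscle and pigment cell precursors (LOC113114739), was at -1.89.

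Agouti, a ventral signal that blocks black pigment in many vertebrates, differed between its copies. LOC113050259 measured 2.92, 1.37 and 4.05 FPKM in golden skin and 0, 0.0479 and 0 FPKM in greenish grey skin, while LOC113046021 measured 0, 0.164 and 0.692 FPKM in golden skin and 4.50, 2.11 and 3.84 FPKM in greenish grey skin. The first copy was at or near 0 in greenish grey skin, and the second was lower in every golden library than in any greenish grey one. A further tested copy, LOC113038505, measured 1.39, 1.10 and 0.536 FPKM in golden skin and 11.1, 1.94 and 2.18 FPKM in greenish grey skin, so 2 of these 3 copies had the lower level in golden skin. Noggin-2 (LOC113042015), a BMP inhibitor, was past 2-fold higher (1.95). Its colours overlapped, with 0.969 FPKM in golden replicate 2 and 0.978 FPKM in greenish grey replicate 1. Another tested noggin-2 gene, LOC113092686, was at 0.83 (SE 0.61) and was not past 2-fold. LBX1 (LOC113112639), a factor of migrating muscle precursors, had 8.80, 0.214 and 3.78 FPKM in golden skin and no count in greenish grey skin. Against a floor of 3 counts per library its golden mean was at least 233-fold higher, and without golden replicate 1 at least 109.6-fold higher. Another tested LBX1 gene, LOC113113778, measured 2.44, 2.38 and 1.03 FPKM in golden skin and 2.01, 1.69 and 1.04 FPKM in greenish grey skin. Its log2 fold change was 0.49 (SE 0.57). The melanophore marker share was lower in golden skin beside all of these differences, and its part in them was not tested.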

How the data were processed

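Messenger RNA of 3 golden and 3 greenish grey skin samples was sequenced. Groups and replicate numbers came from the sample titles. The authors deposited raw counts and FPKM values for 83088 gene rows. FPKM was 0.0001 wherever the deposited count was 0, and these were set to 0. The aligner, counter and strand setting are not given in the sources used here. The submitters' processing notes name the mouse builds GRCm38 and mm10, but the rows are goldfish genes: 75749 IDs and a further 7339 symbols had the same start in the RefSeq table of ASM336829v1. Total counts were 51493103 to 67595616 per library, and floors cover counting error only.

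Counts of the 26421 genes that averaged 1 FPKM or more were tested with edgeR 4.0.16 (R 4.3.3, quasi-likelihood test, two-sided, TMM factors on the totals of all rows) and adjusted by Benjamini and Hochberg's method. Calls were an adjusted p under 0.05 and, separately, a change past 2-fold at an unadjusted p under 0.05. Intervals of 95% came from the standard error and the t distribution, and so hold the spread between libraries. The fit was tested on simulated data, where 199 of 200 genes changed 4-fold were recovered in the comparison of golden with greenish grey skin over 26421 genes. The simulation gave every gene the same spread and no effect of replicate number or muscle share. It checked the code only and does not show which changes these libraries could detect. All 3 same-numbered sets of libraries correlated by over 0.1, so a replicate block was set beside the main fit, which has no block. The labels do not say what a number marks, and whether the numbers pair the libraries was not tested. Alternatives were the replicate block, RLE factors, DESeq2 1.42.0, limma 3.58.1 on log2(FPKM + 1) or log2(FPKM + 0.1), other filters, summed copies, leaving out each library and, added after seeing the data, the muscle marker share as a covariate and the block on summed copies.

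The members and lists were chosen with earlier results of these data known. Named were the ZIC rows, their nearest genes, tested GLI relatives, list genes called by the 2-fold rule, and the 5 genes most correlated with the ZIC gene of highest level. Some ZIC rows are not reported here.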

Additional observations from a re-analysis of the deposited data

How the results depend on the processing

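No ZIC gene passed the adjusted threshold under any alternative run, and the lowest adjusted p was 0.338, in edgeR with the replicate block. Of 56 log2 fold changes of the 4 genes under alternatives, 51 kept their direction and 5 reversed. LOC113042245 was at 0.021 without the second golden library, 0.21 without the third and 0.23 without greenish grey replicate 1, and LOC113042246 at -0.042 without golden replicate 1 and -0.13 with the muscle marker share as a covariate. Leaving out 1 library gave -0.39 to 0.23 for LOC113042245, -0.042 to 1.02 for LOC113042246, 0.30 to 1.76 for LOC113066309 and 0.11 to 1.21 for LOC113066310, each lowest without golden replicate 1 and highest without greenish grey replicate 1. The number of ZIC genes past 2-fold was 0 to 1, with 1 without greenish grey replicate 1, beside 863 of all 26421 tested genes in that fit. The difference in summed ZIC CPM was 1.81 to 10.5.

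Over all genes, calls at an adjusted p under 0.05 were 0 without a block, 1 with the replicate block and 205 in DESeq2. Those past 2-fold were 731 of 26421 genes, against 1335 with the replicate block and 1280 with the muscle covariate. The other filters tested more genes, with 1642 of 51428 past 2-fold with no filter on FPKM and 1324 of 41241 at a mean count of at least 10. Leaving out 1 library gave 494 to 1422, with 1116 without golden replicate 1 and the highest without golden replicate 3. The limma fits moved the median of all genes to -0.10 and -0.14, and the ZIC directions held relative to 0. The list medians ranged over -0.47 to -0.070 for GLI relatives, -0.64 to -0.16 for the hedgehog pathway and -0.77 to 0.41 for the trunk genes on leaving out 1 library, and the trunk median was -0.42 with the replicate block. With the block 0 ZIC genes were called, and the trunk genes past 2-fold were 5 higher and 7 lower, against 3 and 6 without it. The causes were not tested. With 3 libraries a group, intervals of single ZIC genes span more than 2-fold. The spread between libraries, above counting error in all 4 tested genes, limits what could be seen, and the 10 ZIC rows under 1 FPKM were not tested.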
